A study of Mus musculus with 12 samples.

Results

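H3K27ac and H3K4me1 were compared at the early headfold stage (EHF) of the mouse embryo, when the first head folds are visible and the germ layers are forming organ primordia. The study profiled single cells of embryos at 6 morphological stages using CoBATCH, where antibody-guided Tn5 transposase cuts and labels DNA at nucleosomes that carry the mark. The groups used here were EHF H3K27ac and EHF H3K4me1, both from C57BL/6 embryos at embryonic day 7.5, and the same marks at the stages Pre_PS, ES, MS, LS and OB, which run from before the primitive streak to embryos without an allantoic bud. Embryonic days in the labels overlap between stages: E6.0 (Pre_PS), E6.0 and E6.5 (ES), E6.0 and E7.0 (MS), E7.0 and E7.25 (LS), E7.25 and E7.5 (OB). Each group was 1 deposited list of broad peaks made from pooled cells, with no replicate, so every value below describes these libraries and no test was possible. Embryos up to LS were freed of extraembryonic tissue, and whether OB and EHF embryos were is not stated. The number of cells is not given in the sources used here.

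Every peak of the EHF lists on chromosomes 1 to 19 and X was a member, 33031 for H3K27ac and 35646 for H3K4me1, or 68677 of the 442174 peaks in all 12 lists. A peak was placed in the class "both" where a peak of the other mark overlapped it by at least 1 bp, and otherwise in "H3K27ac only" or "H3K4me1 only". It was called near where it lay within 1 kb of either outer end of a protein-coding gene, and far otherwise. The 21627 genes came from a RefSeq table of GRCm38.p6, the assembly that mm10 names. H3K27ac covered 36.2 Mb and H3K4me1 39.1 Mb. Depth was read from the weakest peaks, where the estimated local background was 0.289 fragments for H3K27ac and 0.240 for H3K4me1 at EHF. From ES to OB the H3K27ac lists had 0.211 to 0.330 fragments and the H3K4me1 lists 0.164 to 0.347, while the Pre_PS lists were shallower (0.0499 for H3K27ac and 0.0144 for H3K4me1).

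H3K27ac is acetylation of lysine 27 of histone H3, written mainly by the acetyltransferases CBP and p300, and it marks promoters and enhancers in use. H3K4me1 is a single methyl group on lysine 4 of the same histone, written at enhancers largely by Kmt2c and Kmt2d. It is found at enhancers in use and at enhancers that lack acetylation and are called primed.

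The promoters of 6 genes are printed because they show the range from promoters with 1 mark to promoters with both. They were chosen after their values were seen. A start was given a mark where a peak lay within 1 kb of it, so the printed bases need not lie in a peak. The H3K4me1 peak at Cdx4 (chrX:103321690-103322145) lay outside them. Each run is the 250 bases before the transcription start, 5′ to 3′ on the gene's strand, from RefSeq (GRCm38.p6), and capitals mark CpG dinucleotides. Hnf4a (chr2:163506607-163506856, plus strand), a nuclear receptor gene of visceral endoderm and liver, had H3K27ac only at its start. Tdgf1 (chr9:110946159-110946408, minus strand), a Nodal co-receptor, Cdx4 (chrX:103321148-103321397, plus strand), a caudal homeobox factor of the posterior embryo, and Nanog (chr6:122707239-122707488, plus strand), a pluripotency factor, had H3K4me1 only. Hoxd10 (chr2:74691641-74691890, plus strand), a posterior Hox gene, had both marks at this start and H3K4me1 only at its outer ends. T (chr17:8434173-8434422, plus strand), which encodes the mesoderm factor brachyury, had both.
Hnf4a: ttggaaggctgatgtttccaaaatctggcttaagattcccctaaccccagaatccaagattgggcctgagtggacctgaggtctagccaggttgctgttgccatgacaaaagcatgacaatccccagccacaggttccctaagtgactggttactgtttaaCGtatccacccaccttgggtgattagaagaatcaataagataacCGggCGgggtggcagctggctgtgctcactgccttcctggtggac
Tdgf1: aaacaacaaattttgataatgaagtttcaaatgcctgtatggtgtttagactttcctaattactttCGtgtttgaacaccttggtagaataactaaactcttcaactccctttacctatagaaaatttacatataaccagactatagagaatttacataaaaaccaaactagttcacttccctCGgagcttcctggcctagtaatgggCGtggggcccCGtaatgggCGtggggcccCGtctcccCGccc
Cdx4: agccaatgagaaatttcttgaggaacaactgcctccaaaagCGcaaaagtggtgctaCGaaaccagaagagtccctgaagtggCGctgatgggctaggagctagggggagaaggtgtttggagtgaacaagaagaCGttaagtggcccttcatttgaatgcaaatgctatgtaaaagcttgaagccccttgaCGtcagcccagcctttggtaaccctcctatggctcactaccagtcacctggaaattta
Nanog: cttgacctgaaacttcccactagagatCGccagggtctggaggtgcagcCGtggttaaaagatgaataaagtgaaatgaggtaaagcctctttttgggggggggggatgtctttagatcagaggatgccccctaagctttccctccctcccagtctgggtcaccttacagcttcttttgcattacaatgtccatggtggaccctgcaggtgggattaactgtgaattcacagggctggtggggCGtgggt
Hoxd10: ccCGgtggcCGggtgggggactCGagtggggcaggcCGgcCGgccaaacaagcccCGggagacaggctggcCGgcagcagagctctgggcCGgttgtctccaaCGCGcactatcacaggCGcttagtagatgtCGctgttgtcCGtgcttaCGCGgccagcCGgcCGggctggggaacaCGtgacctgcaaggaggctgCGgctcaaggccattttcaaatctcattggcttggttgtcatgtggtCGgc
T: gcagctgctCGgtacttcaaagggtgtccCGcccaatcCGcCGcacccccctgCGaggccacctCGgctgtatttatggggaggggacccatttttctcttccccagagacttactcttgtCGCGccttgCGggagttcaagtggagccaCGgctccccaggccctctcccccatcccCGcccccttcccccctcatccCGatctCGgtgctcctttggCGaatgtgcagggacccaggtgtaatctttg

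The printed stretches hold 3 CpGs at Hnf4a, 7 at Tdgf1, 5 at Cdx4, 3 at Nanog, 20 at Hoxd10 and 14 at T. All 21044 promoters of the RefSeq table were classed by the same 1 kb rule. In windows of 300 bases, one-mark promoters lay between promoters with both marks and promoters with neither. Promoters with H3K27ac only (241) had a median of 9 CpGs, those with H3K4me1 only (324) had 6, those with both (13126) had 22 and those with neither (7353) had 3, against 13 over all. The ratio of observed to expected CpG was 0.466 with H3K27ac only, 0.282 with H3K4me1 only, 0.768 with both and 0.185 with neither. The letters TATAAA, searched on both strands without regard to other motifs, stood in 14.5% of promoters with H3K27ac only (Wilson 95% interval 10.6 to 19.5), 16.7% with H3K4me1 only (13.0 to 21.1), 6.13% with both, 24.1% with neither and 12.7% of all. The quartiles of the CpG count overlap between the 2 one-mark classes, 5 to 15 with H3K27ac only and 3 to 10 with H3K4me1 only. Wilson intervals here and below cover counting error only.

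At EHF most regions carried both marks. Of the H3K27ac peaks, 28305 (85.7%, interval 85.3 to 86.1) overlapped an H3K4me1 peak and 4726 did not. Of the H3K4me1 peaks, 28040 (78.7%, interval 78.2 to 79.1) overlapped an H3K27ac peak and 7606 did not. The gap between the marks was smaller with the same number of peaks taken from both lists, 83.4% of H3K27ac peaks and 82.6% of H3K4me1 peaks. Overlapping peaks of both lists formed 40136 regions, of which 4726 (11.8%) held H3K27ac only, 7606 (19.0%) H3K4me1 only and 27804 (69.3%) both. In bases, 30.5 Mb were shared, which is 84.4% of the H3K27ac bases and 78.1% of the H3K4me1 bases.

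One-mark peaks lay mainly far from gene ends. Near gene ends 13358 of 13806 H3K27ac peaks (96.8%, interval 96.4 to 97.0) had H3K4me1, against 14947 of 19225 far peaks (77.7%, 77.2 to 78.3). Likewise 13390 of 13991 near H3K4me1 peaks (95.7%, 95.4 to 96.0) had H3K27ac, against 14650 of 21655 far peaks (67.7%, 67.0 to 68.3). Seen from the classes, 448 of 4726 H3K27ac-only peaks (9.48%) and 601 of 7606 H3K4me1-only peaks (7.90%) were near, against 47.2% of the H3K27ac peaks and 47.8% of the H3K4me1 peaks with both. Among the stronger 50% of peaks of each list by −log10 q, set against the whole list of the other mark (an alternative chosen after seeing the data), one-mark peaks were few and more often near. There 21 of 60 H3K27ac-only peaks (35.0%, interval 24.2 to 47.6) and 28 of 195 H3K4me1-only peaks (14.4%, 10.1 to 20.0) were near, against 68.2% and 64.1% with both. Peaks just inside and just outside the 1 kb limit had like shares. Of the H3K27ac peaks 800 to 1000 bp from a gene end 87.7% had H3K4me1, and of those at 1000 to 1200 bp 86.8% did, while the H3K4me1 peaks gave 83.1% and 84.4% with H3K27ac. Only 16 H3K27ac peaks and 15 H3K4me1 peaks were called "both" on an overlap under 50 bp.

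**Figure D1:**
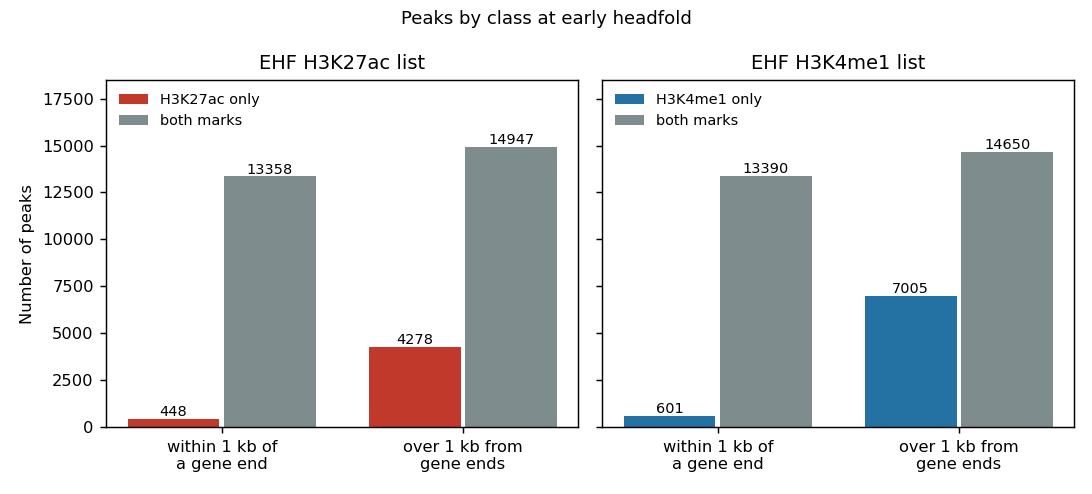
Number of EHF peaks (y axis) within and over 1 kb of a protein-coding gene end, for the H3K27ac list (left) and the H3K4me1 list (right). Coloured bars are peaks with 1 mark and grey bars peaks with both. One-mark peaks number 448 and 601 near gene ends, and 4278 and 7005 far from them.

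One-mark peaks were narrow and weak within their lists. The median width was 379 bp for H3K27ac-only peaks (quartiles 328 to 453), against 927 bp for H3K27ac peaks with both (545 to 1448). It was 399 bp for H3K4me1-only peaks (342 to 482), against 939 bp for H3K4me1 peaks with both (591 to 1487). In either list the upper quartile of the one-mark class lies below the lower quartile of the peaks that carry both. Only 9 H3K27ac-only peaks and 53 H3K4me1-only peaks were wider than 2 kb, against 3626 and 4019 peaks with both.

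The fold deposited for each peak is the authors' value of signal over local background, and classes are compared by it only within a list. For paired and named peaks below, folds of different lists stand side by side. Background differed between lists, so those folds are not on 1 scale. The fold had a median of 3.81 in H3K27ac-only peaks (quartiles 3.41 to 4.38), against 8.41 in H3K27ac peaks with both (5.09 to 15.9). In the H3K4me1 list it was 4.13 in H3K4me1-only peaks (3.63 to 4.86), against 8.83 with both (5.65 to 13.0). The weakest peaks, those at the lowest fold and p of their list, were 687 H3K27ac-only peaks (14.5%), against 304 with both (1.07%), and 888 H3K4me1-only peaks (11.7%), against 216 with both (0.770%).

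Near and far peaks differed widely in fold where both marks were present and little where 1 mark was. H3K27ac-only peaks had a median fold of 4.02 near gene ends and 3.79 far from them, while H3K27ac peaks with both had 14.6 near and 5.65 far. H3K4me1-only peaks had 4.32 near and 4.10 far, while H3K4me1 peaks with both had 11.7 near and 6.38 far. Among peaks of like width, 400 to 600 bp, the shares with both marks differed less between near and far than over all widths. H3K4me1 was at 84.9% of near and 76.3% of far H3K27ac peaks. H3K27ac was at 80.5% of near and 61.9% of far H3K4me1 peaks. Among far peaks of that width, H3K27ac-only peaks still had a lower median fold (4.17) than H3K27ac peaks with both (5.37). Far H3K4me1-only peaks likewise had 4.58, against 5.75 for far H3K4me1 peaks with both.

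**Figure D2:**
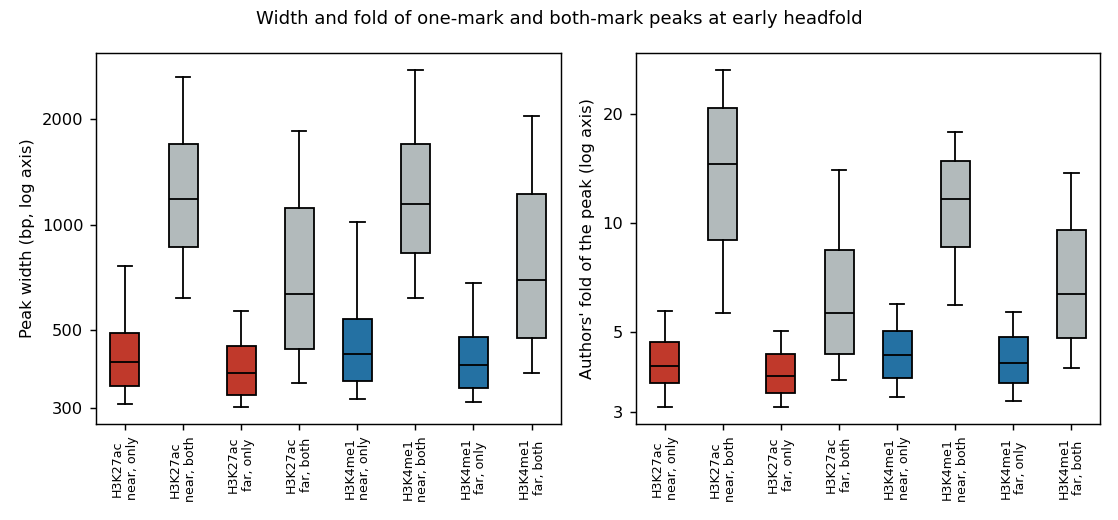
Width (left, bp, log axis) and authors' fold (right, log axis) of EHF peaks by mark, class and place. Boxes are quartiles with the median, and whiskers leave out the 10% of peaks at either extreme. All 4 one-mark medians (coloured boxes), 377 to 427 bp and folds of 3.79 to 4.32, sit below the lower quartile of peaks with both marks from the same place.

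Ranked by the deposited −log10 q, the share of peaks with both marks was higher among the stronger peaks of each list, which was cut into 10 equal bins. In the weakest bin of the H3K27ac list 45.3% of peaks had H3K4me1, and over the next bins the share was 59.2, 74.1, 85.9, 94.2 and 98.6%, with at least 99.6% in the 4 strongest. In the weakest bin of the H3K4me1 list 30.5% had H3K27ac, followed by 44.7, 59.0, 71.7, 86.2 and 95.5%, with at least 99.0% in the 4 strongest. At each of the 6 weaker bins the H3K4me1 list had the lower share.

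**Figure D3:**
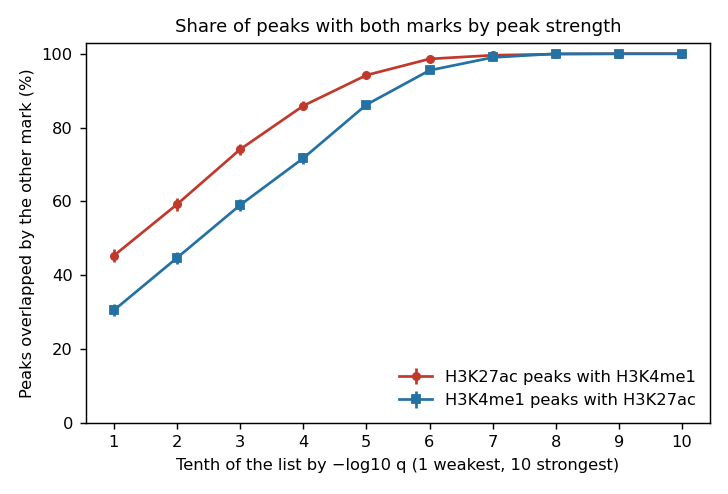
Share of EHF peaks overlapped by the other mark (y axis, %) in 10 equal bins of each list by −log10 q (x axis, 1 weakest, 10 strongest). Lines are H3K27ac and H3K4me1 peaks, and bars are Wilson 95% intervals. The share runs from 45.3% of H3K27ac peaks and 30.5% of H3K4me1 peaks in the weakest bin to nearly all in the strongest.

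Where 1 peak of each mark met, the shapes were close, with a small difference by place. The 27119 such pairs had a median ratio of H3K27ac to H3K4me1 width of 1.00 (quartiles 0.873 to 1.12). Near gene ends H3K27ac was the wider in 58.4% of 13065 pairs, and the H3K4me1 peak lay wholly inside the H3K27ac peak in 36.8%, against 22.3% the other way. Far from gene ends H3K27ac was the wider in 41.8% of 14054 pairs, and the H3K27ac peak lay wholly inside the H3K4me1 peak in 31.3%, against 20.0% the other way. Spearman's rho between the folds of the paired peaks was 0.677 near gene ends, 0.773 far from them and 0.832 over all pairs, a description across peaks that share their libraries.

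Around 21044 transcription starts, H3K27ac without H3K4me1 was more frequent than the reverse close to the start, from 1500 bp upstream to 1200 bp downstream. At the start itself 58.4% of starts were covered by H3K27ac, 58.3% by H3K4me1 and 56.6% by both. A called interval spans the start whatever the signal inside it, so these lists cannot show whether H3K4me1 is lower at the start than beside it. H3K27ac alone covered 5.31% of starts 400 bp upstream, against 3.13% for H3K4me1 alone, and 4.92% at 600 bp downstream, against 2.57%. At 4000 bp downstream the order was the other way, 0.732% for H3K27ac alone and 0.955% for H3K4me1 alone.

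**Figure D4:**
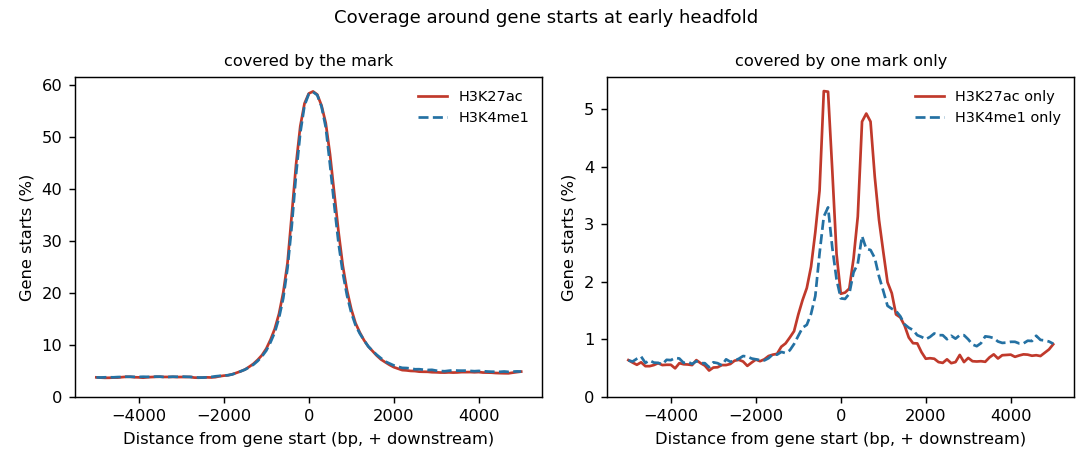
Share of 21044 transcription starts (y axis, %) covered by H3K27ac or H3K4me1 (left) and by 1 mark alone (right) at distances from the start (x axis, bp, positive downstream). Both marks peak together, at 58.8% for H3K27ac and 58.7% for H3K4me1, and H3K27ac alone exceeds H3K4me1 alone at each position from 1500 bp upstream to 1200 bp downstream but not over most of the range beyond.

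Far one-mark peaks lay farther from gene ends than far peaks with both. The median distance to the nearest gene end was 19.0 kb for H3K27ac-only peaks, against 11.4 kb for H3K27ac peaks with both, and 19.4 kb for H3K4me1-only peaks, against 11.6 kb for H3K4me1 peaks with both. Inside genes lay 59.3% of far H3K27ac-only peaks, against 67.6% of far H3K27ac peaks with both, and 56.2% of far H3K4me1-only peaks, against 67.2% of far H3K4me1 peaks with both. One-mark peaks rarely bordered a region of the other mark. The nearest peak of the other mark stood a median of 10.9 kb from H3K27ac-only peaks and 11.9 kb from H3K4me1-only peaks, and lay within 1 kb for 76 (1.61%) and 87 (1.14%) of them.

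One-mark sites were looked up in the pooled lists of the 5 earlier stages, where most overlapped a peak of the other mark. Of the 4278 far H3K27ac-only peaks, 3826 (89.4%) overlapped an H3K4me1 peak of at least 1 of the 5 earlier stages. The Pre_PS H3K4me1 list, which held 18.3% of them, was weak. In that list 24712 of 36739 peaks (67.3%) stood at the lowest fold and p, with a solved pileup of 1 fragment. Of the 7005 far H3K4me1-only peaks, 4923 (70.3%) overlapped an H3K27ac peak of an earlier stage, which leaves 2082 (29.7%) that did so at none. Far peaks with both marks were found more often, 99.7% of H3K27ac peaks in an earlier H3K4me1 list and 97.8% of H3K4me1 peaks in an earlier H3K27ac list. They were also wider, and width was not matched in these shares. Near gene ends the counts were 401 of 448 H3K27ac-only peaks (89.5%) and 464 of 601 H3K4me1-only peaks (77.2%).

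At single stages the shares were lower. In the H3K4me1 lists of LS and OB, 63.9% and 66.4% of the far H3K27ac-only peaks were found, more than the 52.0% and 39.6% found in the H3K27ac lists of the same stages. Of the far H3K4me1-only peaks, 49.8% and 36.3% were found in the H3K27ac lists of LS and OB, so under 50% at either stage, against 68.0% and 69.3% in the H3K4me1 lists. The H3K4me1 lists of LS and OB were also the larger, 45666 and 46041 peaks against 39635 and 34823 for H3K27ac. The part of list size in these shares was not tested. At OB, the stage just before, 1421 (33.2%) of the far H3K27ac-only sites had both marks, 273 (6.38%) H3K27ac only, 1418 (33.1%) H3K4me1 only and 1166 (27.3%) neither. Of the far H3K4me1-only sites 2204 (31.5%) had both at OB, 339 (4.84%) H3K27ac only, 2653 (37.9%) H3K4me1 only and 1809 (25.8%) neither. Among far H3K27ac peaks of 400 to 600 bp, the OB H3K4me1 list held 74.6% of one-mark peaks and 96.4% of those with both. Among far H3K4me1 peaks of that width, the OB H3K27ac list held 41.7% of one-mark peaks and 78.3% of those with both.

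List size and background differed between EHF and OB. The H3K4me1 list held 35646 peaks at EHF and 46041 at OB, with a background of 0.240 and 0.329 fragments, and the H3K27ac list 33031 and 34823, with 0.289 and 0.230. When the EHF and OB lists of the other mark were joined, an alternative chosen after seeing the data, 95.2% of EHF H3K27ac peaks and 86.5% of EHF H3K4me1 peaks had the other mark. The part of depth in the one-mark classes was not tested. In the order Pre_PS, ES, MS, LS, OB and EHF, the shared bases as a share of the bases of either mark were 0.214, 0.610, 0.594, 0.670, 0.621 and 0.683.

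**Figure D5:**
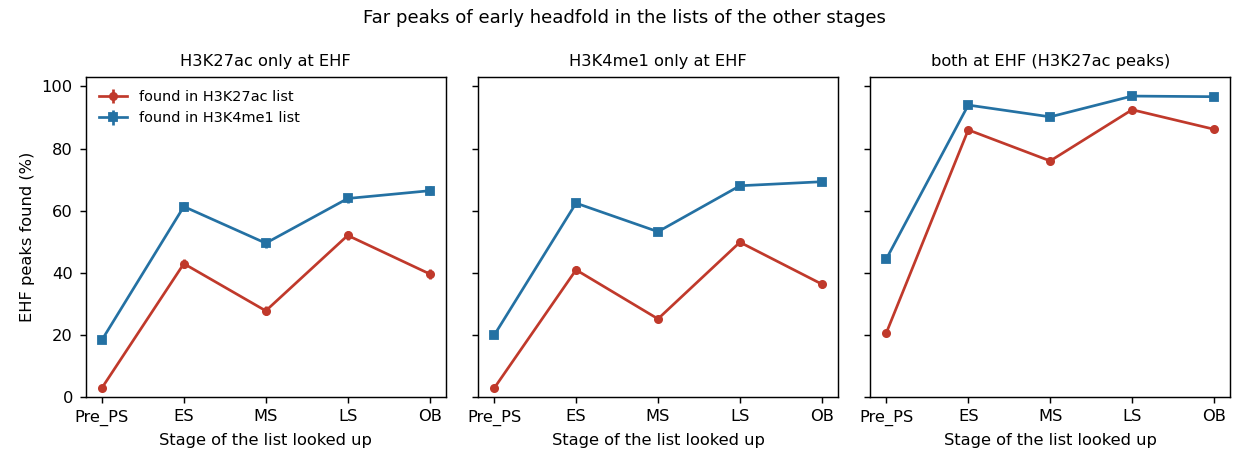
Share of far EHF peaks (y axis, %) found in the H3K27ac and H3K4me1 lists of the 5 earlier stages (x axis), for H3K27ac-only peaks (left), H3K4me1-only peaks (middle) and H3K27ac peaks with both marks (right). Bars are Wilson 95% intervals. At OB 66.4% of H3K27ac-only and 69.3% of H3K4me1-only peaks were found in the H3K4me1 list, against 96.7% of peaks with both. Peak widths were not matched.

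At the level of genes, 289 of 21627 (1.34%) had H3K27ac only within 1 kb of an outer end, 359 (1.66%) had H3K4me1 only, 13533 (62.6%) had both and 7446 (34.4%) had neither. Counting only the stronger 50% of a mark's peaks, with no peak at all of the other mark, left 52 genes with H3K27ac only and 51 with H3K4me1 only. At the starts of the promoter table, chosen after seeing the data like the count before, there were 189 and 243 of 17273 genes. The order of the one-mark counts turned with equal numbers of peaks from both lists, 330 genes with H3K27ac only and 306 with H3K4me1 only. Of the 289 genes with H3K27ac only, 265 (91.7%) had H3K4me1 at an end at an earlier stage, and 0 had H3K27ac only at all 4 stages from ES to OB as well. Of the 359 with H3K4me1 only, 283 (78.8%) had H3K27ac at an end earlier, and 12 had H3K4me1 only at all stages from ES to OB as well. Among these 12 were Cd40, a receptor of immune cells, Sftpb, a lung surfactant protein, Pde6c, a phosphodiesterase of cone photoreceptors, and Sostdc1, a secreted Wnt and BMP antagonist; these 4 were picked after their values were seen. Genes whose symbol begins with Zfp, which encode zinc finger proteins, made up 6.57% of the genes with H3K27ac only (19 genes, interval 4.25 to 10.0) and 1.95% of those with H3K4me1 only (7 genes, 0.948 to 3.97). They were 1.96% of the genes with both, 1.42% of those with neither and 1.84% of all. Olfactory and vomeronasal receptor genes, 6.77% of all genes, made up 1451 (19.5%) of the genes with neither mark, against 4 with H3K27ac only, 3 with H3K4me1 only and 7 with both.

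The H3K27ac-only peaks of highest fold near gene ends stood at Ska2, a kinetochore protein (fold 13.0), Zbtb6, a zinc finger protein (12.5), and Cenpu, a centromere protein (11.7), each 633 to 811 bp wide. The Ska2 peak (chr11:87109556-87110259) had H3K27ac in each list from ES to EHF, with a fold of 12.2 at LS and 11.7 at OB, and H3K4me1 in each list from ES to OB, with 10.5 at LS and 11.4 at OB. The widest near H3K27ac-only peaks lay at 1700018B08Rik (3.11 kb), Ptpa, an activator of protein phosphatase PP2A (2.26 kb), and Borcs5, a part of a lysosome-positioning complex (2.02 kb). Their folds of 3.49 to 4.42 were low in the list.

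Far H3K27ac-only peaks of highest fold stood nearest to Cxxc5, a CXXC zinc finger protein (10.7), Zfp217, a transcriptional repressor (9.74), and Tmem132c (9.62), at 4.75, 71.1 and 80.8 kb from the gene end. The widest lay in or by Rbm19, a factor of ribosome assembly (3.00 kb), Rnf215 (2.82 kb) and Col4a2, a collagen IV chain of basement membranes (2.45 kb). All 12 of these H3K27ac-only peaks lay in an H3K4me1 list of an earlier stage, and all 12 also in an earlier H3K27ac list. Over all H3K27ac-only peaks, 89.5% of near and 89.4% of far ones lay in an earlier H3K4me1 list. For an earlier H3K27ac list the shares were 79.0% and 73.9%. The 12 were picked for width or fold, so they do not stand for the class.

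Among H3K4me1-only peaks near gene ends, the widest lay at Ap1s1, an adaptor subunit of vesicle coats (3.13 kb), En2, a homeobox factor of midbrain and hindbrain (2.82 kb), and Igfbp6, an IGF-binding protein (2.70 kb). The En2 peak (chr5:28168635-28171452) stood 738 bp from the gene end with a fold of 7.07. It had H3K4me1 from ES to EHF and H3K27ac at ES, MS and LS but not at OB or EHF. The near H3K4me1-only peaks of highest fold lay at Tekt3, a filament protein of cilia and sperm tails (9.66), Pla2g2e, a secreted phospholipase (9.38), and Rhbdl2, a membrane protease (9.24).

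Far H3K4me1-only peaks of highest fold stood nearest to Mvb12b, a part of an endosomal sorting complex (11.4), Pdgfb, a growth factor for mural cells of vessels (10.8), and Micall2 (10.4). The widest stood nearest to Emid1 (3.82 kb), Pitpnm2, a lipid transfer protein (3.49 kb), and Sspo, a glycoprotein of the subcommissural organ (3.37 kb). All 12 named H3K4me1-only peaks lay in an H3K27ac list of an earlier stage, so none of these sites had H3K4me1 only throughout the series. Over all H3K4me1-only peaks, 77.2% of near and 70.3% of far ones lay in such a list.

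Peaks with both marks reached far larger widths and folds. The widest, ranked by the H3K27ac peak, was 29.7 kb with Gins2 as the nearest gene, followed among far peaks by those nearest to Aatk, a kinase gene (14.0 kb), and Adgrb2, an adhesion receptor (12.3 kb). Near gene ends the widest lay at Pip5k1c, a phosphoinositide kinase (23.0 kb), Dbp, a circadian transcription factor (17.5 kb), and Zbtb7a, a transcriptional repressor (17.5 kb). A peak that spans several gene ends is named here by the first of them along the chromosome, so other genes may lie in it. Among near peaks the folds were highest at Hjurp, the chaperone of the centromeric histone (67.2 for H3K27ac and 36.2 for H3K4me1), Rab1a, a GTPase of transport from the endoplasmic reticulum (51.7 and 28.7), and Rc3h1, an RNA-binding ubiquitin ligase (48.4 and 24.9).

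A few far sites with both marks stood apart in fold. Peaks in repeated sequence were not filtered out here, and what raised these folds was not tested. The peak nearest to Esp38, 102 kb away, had a fold of 348 for H3K27ac and 304 for H3K4me1 at EHF, and 366 to 704 for H3K27ac at ES to OB. The peaks nearest to Axin2 (75.3 and 55.3, 60.9 kb away) and Pex2 (67.7 and 52.1, 282 kb away) were only 470 and 491 bp wide and were present in all 12 lists.

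Most genes of the germ layer lists had both marks at their ends, against 62.6% of all genes. All 16 primitive streak genes and all 18 genes of paraxial mesoderm had both, as had 26 of 27 genes of neural plate and brain patterning, 17 of 18 of lateral plate and extraembryonic mesoderm, 17 of 19 of endoderm and node, and 39 of 42 Hox and Cdx genes. Both marks were also at 9 of 10 genes of neural crest and plate border, 14 of 16 of surface ectoderm and amnion, 15 of 19 of cardiac mesoderm, 14 of 18 of pluripotency and 7 of 9 of primordial germ cells. Of 20 housekeeping genes, 19 had both. The share was lower in 4 lists, with 8 of 15 visceral endoderm genes, 7 of 15 trophoblast genes, 11 of 20 blood and endothelium genes and 13 of 28 adult tissue genes. Fewer cells of a type and less mark per cell cannot be told apart in pooled lists.

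Around list members H3K4me1-only peaks outnumbered H3K27ac-only peaks, as they did over all genes. Over all genes, 4018 of 31275 H3K27ac peaks within 100 kb of a gene end (12.8%) lacked H3K4me1, and 6585 of 33582 H3K4me1 peaks (19.6%) lacked H3K27ac. For Hox and Cdx genes these shares were 1 of 83 H3K27ac peaks (1.20%, interval 0.213 to 6.51) and 12 of 90 H3K4me1 peaks (13.3%, 7.79 to 21.9). For neural plate and brain patterning they were 4 of 112 (3.57%, 1.40 to 8.82) and 25 of 127 (19.7%, 13.7 to 27.4). Primitive streak genes had 4 of 43 (9.30%) and 14 of 52 (26.9%), and trophoblast genes 5 of 24 (20.8%) for either mark. Visceral endoderm genes had the opposite order, 3 of 18 H3K27ac peaks (16.7%, 5.84 to 39.2) and 1 of 15 H3K4me1 peaks (6.67%, 1.19 to 29.8), with intervals that overlap. In the other lists 3.33 to 10.5% of H3K27ac peaks lacked H3K4me1, and 8.33 to 26.9% of H3K4me1 peaks lacked H3K27ac. In sum, list members had 59 H3K27ac-only and 174 H3K4me1-only peaks, and within 1 kb of their ends 1 and 13.

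Those 13 near H3K4me1-only peaks included 4 at Hox genes. They lay at Hoxa10 (655 bp, fold 5.59), Hoxb7 (345 bp, 3.23), Hoxb9 (526 bp, 5.19) and Hoxd9 (321 bp, 3.74), genes that pattern the trunk and limbs. At the sites of the Hoxb7 and Hoxd9 peaks no H3K27ac list of the series had a peak, while Hoxa10 had one at LS and Hoxb9 at ES. A near one-mark peak does not mean that the gene's ends lack the other mark. Of 42 Hox and Cdx genes only 2, Cdx4 and Hoxd10, had H3K4me1 only at their ends. These 4 Hox genes had both marks at their ends at EHF through other peaks. Pax6, a factor of eye and forebrain, had a peak of 1260 bp with H3K27ac at ES and LS, and Tcf15, a factor of somites, had one of 440 bp that was in no other list of either mark. The rest lay at En2, Cdx4, Tdgf1, Wnt6, a Wnt ligand, Hcn4, a pacemaker channel of the heart, Pomc, a pituitary hormone precursor, and Prm1, a sperm protamine.

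The genes with a single mark at their ends differed in history. In the order Pre_PS to EHF, Cdx4 had 0, 0.322, 0, 0.399, 0.756 and 0 kb of H3K27ac in its territory, the bases nearest to its ends within 100 kb. H3K4me1 covered 0, 0.295, 0.976, 0.817, 0.741 and 0.853 kb there, so Cdx4 had both marks at ES, LS and OB and H3K4me1 alone at MS and EHF. Tdgf1 had 0, 0.736, 0.421, 0.474, 0.301 and 0 kb of H3K27ac and 0, 0.364, 0, 0.939, 1.11 and 0.399 kb of H3K4me1. H3K27ac at Tdgf1 was thus present at each stage from ES to OB and absent from the EHF list.

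Nanog had 1.73 kb of H3K27ac and 1.32 kb of H3K4me1 in its territory at EHF, but only H3K4me1 lay within 1 kb of its ends. Its ends had H3K27ac at ES and OB, and H3K4me1 at ES, LS and EHF. Hoxd10 had H3K27ac at its ends at ES and LS only, and H3K4me1 from ES to EHF. Gfi1b, a repressor of blood development, had H3K27ac at its ends at ES, LS and OB, and H3K4me1 from ES to EHF. Hnf4a was the single list member with H3K27ac only (chr2:163506718-163507197, 480 bp, fold 4.97), and H3K4me1 had been at its ends at each stage from Pre_PS to OB.

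Covered bases in a gene's territory, scaled to the covered Mb of each list, gave a signed difference of H3K27ac minus H3K4me1. H3K27ac had the higher share in 10318 of 16259 territories with any coverage (63.5%) and H3K4me1 in 5941 (36.5%). Housekeeping genes had the higher H3K27ac share in 15 of 20, and paraxial mesoderm genes in 15 of 18. Eef2, a translation elongation factor, had 8.43 kb of H3K27ac and 4.12 kb of H3K4me1, and Actb, cytoplasmic actin, had 6.98 and 5.96 kb. Neural plate and brain patterning genes had the higher H3K4me1 share in 20 of 27, Hox and Cdx genes in 26 of 42, and cardiac mesoderm genes in 12 of 19. Pax2, a factor of midbrain and kidney, had 23.3 kb of H3K27ac and 26.5 kb of H3K4me1, and Casz1, a zinc finger factor of heart and eye, had 47.6 and 61.0 kb.

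Other list members of wide coverage differed in direction on the scaled measure. In surface ectoderm, Wnt7b, a Wnt ligand, had 17.0 kb of H3K27ac and 26.5 kb of H3K4me1, a difference of −209 bp per covered Mb. Pax7, a factor of the neural crest and plate border, had 14.2 and 23.6 kb, a difference of −212. Snai1, a repressor of E-cadherin active in the streak, had 13.6 and 14.7 kb with a scaled difference near 0 (−1.80). Lfng, a modifier of Notch receptors in paraxial mesoderm, had 11.7 and 12.4 kb with a positive difference of 6.65. Cdx2, a caudal factor of trophoblast and the posterior embryo, had 5.94 kb of H3K27ac and 5.71 kb of H3K4me1, a difference of 18.1. The most H3K4me1-only peaks among list members were 7 at Pax7, 7 at Bmp7, 5 at Casz1 and 5 at Wnt7b.

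In bp per covered Mb, strongly positive differences stood at Kmt2d (279), an H3K4 methyltransferase, Celsr2 (186), a planar polarity cadherin, Gcn1 (153), an activator of a stress kinase, and Tnrc18 (150.1). Kmt2d had 25.3 kb of H3K27ac and 16.4 kb of H3K4me1, and Celsr2 22.5 and 17.1 kb. At Kmt2d the difference was positive at each of the 6 stages, whereas at Celsr2 it was −21.8 at ES and −9.40 at LS. None of the Kmt2d peaks lacked the other mark, but an overlap of 1 bp is enough for that. H3K27ac covered more bases there than H3K4me1, so part of its bases had no H3K4me1 peak over them.

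The difference was most negative at Grm4 (−332), a glutamate receptor, Zfp469 (−316), Bmp7 (−296), a BMP ligand, Ephb2 (−275), an ephrin receptor, and Atp9a (−264), a lipid flippase. Grm4 had 13.6 kb of H3K27ac and 27.7 kb of H3K4me1 and the difference was negative at each stage. It held 21 H3K4me1-only peaks, 20 of them far, and 1 H3K27ac-only peak. Bmp7 had 16.7 and 29.6 kb, negative at all 6 stages, and Ephb2 had 19.7 and 32.0 kb with a positive value of 43.0 at ES. Rbm19, chosen after its values were seen, had 8 far H3K27ac-only peaks beside 10 H3K4me1-only ones.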

How the data were processed

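Single cells of mouse embryos were profiled for H3K27ac and H3K4me1 with CoBATCH, and 1 broad peak list per stage and mark was used, 12 in all. The submitters' processing notes name mm10 and the tools Bowtie2, Picard, MACS2 and deepTools, while their versions, settings and order, and how cells were pooled, are unknown here. In the deposited lists the fold is the authors' ratio over local background, the −log10 p and −log10 q values are their peak caller's, and the deposited score is the whole part of 10 times −log10 q, which was not used. Per-cell values were not analysed.

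Peaks on chromosomes 1 to 19 and X were classed with Python 3.11.15, numpy 2.4.6 and pandas 2.3.3. Total depth is not given, so the background was solved from the weakest peaks, where fold = (pileup + 1)/(background + 1) and p is a Poisson tail, with pileups to 20 and a tolerance of 0.001 on −log10 p. The RefSeq table holds no strand or exons, so both outer gene ends were used. Starts came from the RefSeq promoter table, which covers 17273 of the genes. The interval code was tested on simulated data (2420 of 2420 checks recovered). Named genes were, per class, the nearest to the 3 widest and the 3 highest-fold peaks, the 5 largest differences in territory either way, and list members with the most coverage or with 1 mark only; some results are not reported here. Members and the 16 gene lists (307 symbols, all matched) were chosen with earlier results of these data known. With 1 list per group no test was made. The alternatives tried changed the overlap, the peak threshold, the width range and the distance to a gene end.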

Additional observations from a re-analysis of the deposited data

Results flagged for a closer look

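Peaks on sequences outside the comparison were counted apart. The EHF H3K27ac list held 37 such peaks (21 on Y, 1 on the mitochondrial genome and 15 on unplaced sequences), and the EHF H3K4me1 list held 34 (17 on Y, 3 on the mitochondrial genome and 14 on unplaced sequences). There is no control library to set them against.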

How the results depend on the processing

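Of 93 alternative values under 7 planned and 3 added settings, 77 moved and 16 did not. A share counts as moved outside the main value's interval and a count of genes beyond 1.5 times, while ratios of medians have no interval and count as moved at any change of the printed value, however small. The values are given for H3K27ac and then H3K4me1, and the ratios are medians of peaks with both over one-mark peaks (main values 2.45 and 2.35 for width, 2.21 and 2.14 for fold), all above 1 in each setting. Where the other mark had to cover 50% of a peak, 82.7% of H3K27ac peaks and 74.1% of H3K4me1 peaks had the other mark. The near share was 12.5% of H3K27ac-only and 10.4% of H3K4me1-only peaks, against 47.9 and 49.3% with both, and the ratios were 2.29 and 2.16 (width) and 2.24 and 2.16 (fold). Where the midpoint had to lie in the other mark, 82.8% of H3K27ac peaks and 74.3% of H3K4me1 peaks had the other mark. The near share was 12.7% of H3K27ac-only and 10.9% of H3K4me1-only peaks, against 47.8 and 49.0% with both, and the ratios were 2.29 and 2.16 (width) and 2.23 and 2.15 (fold). In the upper 50% of both lists, 91.8% of H3K27ac peaks and 84.9% of H3K4me1 peaks had the other mark. There the near share was 45.4% of H3K27ac-only and 25.8% of H3K4me1-only peaks, against 70.1 and 70.3% with both, and the ratios were 1.63 and 1.63 (width) and 1.82 and 1.55 (fold). One-mark genes then numbered 623 and 560, against 289 and 359. This setting drops weaker partners too, so most of its one-mark peaks have the other mark in the whole list, and these values do not describe one-mark sites. With the upper 50% of a mark's peaks against the other mark's whole list, chosen after seeing the data, 99.6% of H3K27ac peaks and 98.9% of H3K4me1 peaks had the other mark. Here the near share was 35.0% of H3K27ac-only and 14.4% of H3K4me1-only peaks, against 68.2 and 64.1% with both, and the ratios were 2.12 and 2.10 (width) and 1.84 and 1.54 (fold). One-mark genes then numbered 52 and 51. With equal numbers of peaks, 83.4% of H3K27ac peaks and 82.6% of H3K4me1 peaks had the other mark. Then the near share was 9.57% of H3K27ac-only and 8.45% of H3K4me1-only peaks, against 48.2 and 48.8% with both, and the ratios were 2.46 and 2.32 (width) and 2.27 and 2.04 (fold). One-mark genes numbered 330 and 306, which turns their order; this setting and the next also remove partner peaks. Without the weakest peaks, 86.8% of H3K27ac peaks and 79.8% of H3K4me1 peaks had the other mark. Without them the near share was 9.88% of H3K27ac-only and 8.21% of H3K4me1-only peaks, against 47.9 and 48.4% with both, and the ratios were 2.41 and 2.33 (width) and 2.17 and 2.10 (fold). Among peaks of 500 to 2000 bp, 96.3% of H3K27ac peaks and 92.3% of H3K4me1 peaks had the other mark. In this range the near share was 14.1% of H3K27ac-only and 10.6% of H3K4me1-only peaks, against 54.7 and 53.6% with both, and the ratios were 1.53 and 1.46 (width) and 2.72 and 2.26 (fold). With near meaning within 2.5 kb, 16.9% of H3K27ac-only and 13.8% of H3K4me1-only peaks were near, against 54.0 and 54.3% with both. Likewise chosen after seeing the data, joining the other mark's EHF and OB lists gave 95.2 and 86.5% with the other mark, and the 17273 genes with a start in the promoter table gave 189 genes with H3K27ac only and 243 with H3K4me1 only. No paired analysis was possible because each mark and stage had 1 library and no replicate numbers. Total depth is unknown, so a missing peak means only that none was called at this depth.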
